A study of Rattus norvegicus with 9 samples.

Results

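Cytochrome P450 enzymes of families 1 to 4 are membrane proteins that use a heme iron to insert oxygen into foreign compounds, steroids, fatty acids and eicosanoids. They take their electrons from the reductase encoded by Por, and many of their genes sit in tandem arrays of close relatives. The lung holds its own set of them, above all in the club cells of the small airways and in alveolar type 2 cells, where they detoxify inhaled chemicals and also turn some of them into toxic products. Genes were taken as members where the only symbol given for a probe began with Cyp, a digit from 1 to 4 and a letter. This gave 50 of the 14497 genes with 1 symbol on the array, each with 1 probe, which is a summary value of 1 transcript cluster. The probe means over all animals had a median of 7.65 on the log2 scale. Above it lay 17 members, called brighter here, and 33 lay below and are called dimmer. Next to this limit, Cyp2c23 with a mean of 7.68 and Cyp2j4 with 7.70 fell on the brighter side, and Cyp2j3 with 7.57 and Cyp2r1 with 7.53 on the dimmer side. A dim probe can be a gene that the lung hardly expresses or a probe that binds weakly, and the table holds no detection calls that would part them.

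Lung RNA came from 7 Wistar rats, 3 with metabolic syndrome (MetS) and 4 controls. MetS rats had a 30% sucrose solution as their only drink for 24 weeks, the controls drank water, and both groups ate the same standard chow and were fasted for 7 hours before death. The model is thus a drink given to rats of 1 strain. Male sex is labelled for the MetS rats alone, which bears on this gene family because several rat liver P450 genes are sex-dependent, and sex was not tested. A second array of MetS animal 1 and of control 1 was averaged with the first, so that 9 arrays stood for 7 animals and n counts animals. The number of animals limits the precision, and a bulk lung value cannot tell fewer cells of a type from less RNA per cell.

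The values of 2 animals stood apart from the rest. Controls 2 and 3 correlated with each other at 0.990 over all 28826 probes, but at 0.961 to 0.984 with the other 5 animals, whose lowest correlation among themselves was 0.983. Their values were also less spread. The SD over all probes of an animal, called the array SD here, was 1.88 to 1.93 in MetS animals, against 1.77 and 1.76 in controls 2 and 3 and 1.85 and 1.88 in controls 1 and 4. Lung markers were bright, with a mean level of the 7 alveolar type 2 markers of 12.82 to 12.91 in MetS animals and 12.77 to 12.85 in controls. The mean of 9 hepatocyte markers was 6.47 to 6.49 in MetS animals and 6.50 to 6.69 in controls. Alb, the albumin gene, had the widest difference of the 9. It stood at 5.72, 5.77 and 5.83 in MetS animals 1 to 3, against 5.89, 6.32, 6.28 and 5.76 in controls 1 to 4. The median difference of the 9, MetS minus control, was -0.069, and 0.064 after quantile normalizing the arrays again. Over all dimmer probes these medians were -0.060 and 0.063. On average 8 of the 9 were lower in MetS, against 66.4% of all dimmer probes.

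The comparison asked which of these genes differed between the lungs of MetS rats and controls. No member passed, since 0 of 50 had an adjusted p under 0.05 in limma over all probes, where 0.0% of all probes did so and no adjusted p was below 0.324. Higher in MetS at an unadjusted p under 0.05 were 2 members, Cyp2t1 and Cyp2d4, against 3.82% of all probes. Lower at the same threshold were 6, Cyp2c6v1, Cyp2c13, Cyp2c11, Cyp3a2, Cyp3a23-3a1 and Cyp4a8, against 9.91% of all probes. Both of the higher ones were brighter members and all 6 of the lower ones were dimmer members. The share of all brighter probes that were higher was 5.4%, and the share of all dimmer probes that were lower was 17.4%, so that 6 of 33 dimmer members is near the background of dim probes. Without 1 MetS animal the lower count was 1 (animal 1, 4.7% of all probes), 2 (animal 2, 5.21%) or 4 (animal 3, 8.33%). Without 1 control it was 7 (control 1, 10.2%), 3 (control 2, 6.46%), 3 (control 3, 5.93%) or 14 (control 4, 14.4%). The higher count became 3 without MetS animal 1 (3.25% of all probes) and 1 without MetS animal 3 (2.67%). It was 2 without any 1 of the others (1.82% to 6.99%).

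**Figure D1:**
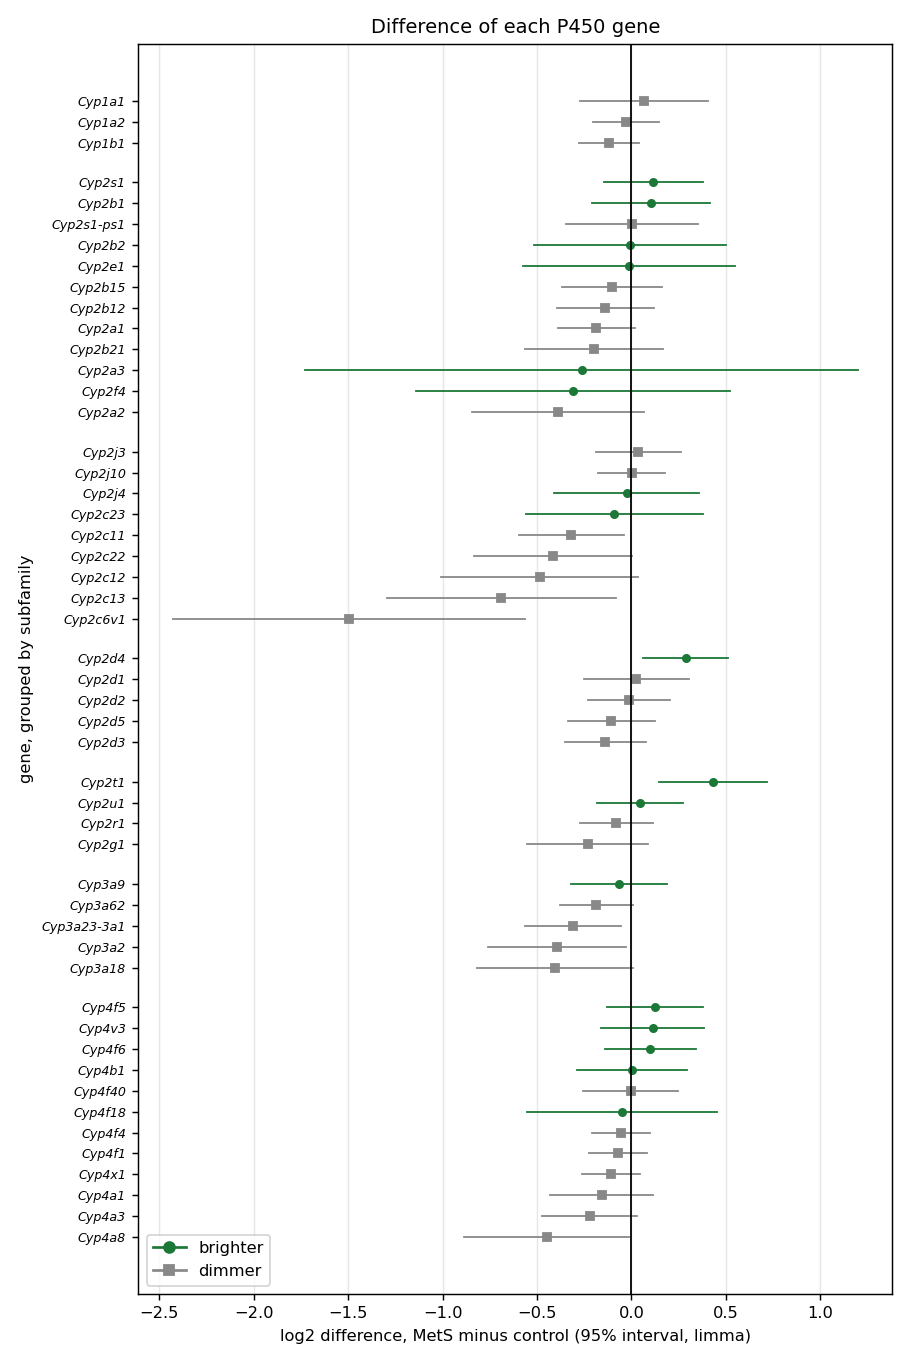
Log2 difference, MetS minus control, of each of the 50 P450 genes with its 95% interval from limma, grouped by subfamily, with brighter genes as green circles and dimmer genes as grey squares. Intervals that leave out 0 belong to Cyp2t1 and Cyp2d4 on the right and to 6 dimmer genes on the left, and no gene passed after adjustment over all probes.

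The P450 genes of subfamilies 2a, 2b, 2e, 2f and 2s were grouped here as foreign compound oxidases known from airway or liver. Of their 12 members 6 were brighter and 6 dimmer. No difference between the groups passed, and 0 of the 12 reached an unadjusted p under 0.05. Cyp2b1, a form that phenobarbital induces in liver and that lung expresses constitutively, stood at 12.83, 12.57 and 12.93 in MetS animals 1 to 3, against 12.56, 12.45, 12.90 and 12.76 in controls 1 to 4. Its close relative Cyp2b2 stood at 11.25, 10.90 and 11.48 in the MetS animals, against 10.95, 10.96, 11.71 and 11.25 in the controls. MetS animal 3 and control 3 had the highest value of their group for both genes, and the groups overlapped. The difference was 0.11 for Cyp2b1, with a 95% interval of -0.21 to 0.42, and -0.0063 for Cyp2b2, with an interval of -0.51 to 0.50. Cyp2e1, the ethanol and solvent oxidase, stood at 9.53, 9.92 and 10.30 in the MetS animals, against 9.52, 9.98, 10.39 and 9.83 in the controls. MetS animal 1 and control 1 had the lowest values of their groups, and the means were 9.92 ± 0.38 (SD, n = 3) in MetS and 9.93 ± 0.36 (SD, n = 4) in controls. Cyp2s1, an epithelial form found mostly outside the liver, stood at 9.51, 9.53 and 9.72 in the MetS animals, against 9.47, 9.68, 9.48 and 9.25 in the controls. Its difference was 0.12 with an interval of -0.15 to 0.38. With the array SD as a covariate, it was 0.34 (limma, unadjusted p = 0.0224). The 6 dimmer members of these subfamilies, Cyp2a1, Cyp2a2, Cyp2b12, Cyp2b15, Cyp2b21 and Cyp2s1-ps1, ran from -0.39 for Cyp2a2 to 0.0034 for Cyp2s1-ps1.

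Cyp2a3 and Cyp2f4 differed far more among the controls than between the groups. Cyp2a3, a form of lung and nose that oxidises coumarin and tobacco nitrosamines, stood at 10.21, 9.69 and 9.60 in MetS animals 1 to 3, against 10.02, 11.35, 10.59 and 8.43 in controls 1 to 4. Cyp2f4, the rat relative of the mouse club cell enzyme that activates naphthalene, stood at 10.61, 10.01 and 10.13 in the MetS animals, against 10.78, 11.29, 10.47 and 9.70 in the controls. For both genes control 2 was the highest and control 4 the lowest of all 7 animals, and the MetS animals lay between them. The control values spanned 2.93 on the log2 scale for Cyp2a3, a 7.59-fold range, and 1.59 for Cyp2f4, a 3.01-fold range. Of all brighter probes 0.125% had a control range as wide as that of Cyp2a3 and 0.930% one as wide as that of Cyp2f4. The 2 arrays of one animal were close, with Cyp2a3 differing by 0.013 in MetS animal 1 and by -0.061 in control 1. Controls 2 and 4, the ends of both control ranges, had 1 array each, so the error of their values was not measured. The difference between the groups was -0.26 for Cyp2a3 (limma, adjusted p = 0.852), with an interval of -1.73 to 1.20, and -0.31 for Cyp2f4 (adjusted p = 0.688), with an interval of -1.14 to 0.52. Without controls 2 and 3 it was 0.61 for Cyp2a3 and 0.0086 for Cyp2f4. Without control 4 the Cyp2f4 difference was -0.60 (limma, unadjusted p = 0.0467), and the Cyp2a3 difference was -0.82. Without control 2 the Cyp2a3 difference was 0.15, and with the array SD as a covariate it was 1.06.

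Of the 4 measured club cell markers, Scgb3a1 alone was highest in control 2, as these 2 genes were. Scgb3a1, a secretoglobin of the airway epithelium that was picked here after its values were seen, stood at 10.35, 10.29 and 9.90 in the MetS animals, against 11.70, 12.47, 11.44 and 10.27 in the controls. Control 4 was the lowest of the controls, but MetS animal 3 was the lowest of all animals, unlike for Cyp2a3 and Cyp2f4. The Scgb3a1 difference was -1.29 (limma, unadjusted p = 0.0249, adjusted p = 0.33). It was -0.81 without controls 2 and 3 (unadjusted p = 0.125) and -0.53 with the array SD as a covariate (unadjusted p = 0.387). Scgb1a1, the club cell secretoglobin, stood at 13.69, 13.75 and 13.76 in the MetS animals, against 13.73, 13.77, 13.81 and 13.73 in the controls, near the top of the table. Scgb3a2 stood at 11.00, 11.41 and 10.57 in the MetS animals, against 11.13, 11.07, 11.03 and 10.46 in the controls. Here MetS animal 2 was the highest, and control 4 was the lowest of all animals, as for Cyp2a3 and Cyp2f4. Bpifa1, a secreted airway protein, stood at 5.57, 5.49 and 5.68 in the MetS animals, against 5.66, 5.74, 5.91 and 5.57 in the controls. Control 3 was the highest, as it was for Scgb1a1. The Bpifa1 mean of 5.66 lay below 6.48, the 25th percentile of all probe means. The mean level of the 4 measured club cell markers of 5 listed was 9.98 to 10.23 in MetS animals and 10.01 to 10.76 in controls, and none of the 4 was listed at 0. Their part in the Cyp2a3 and Cyp2f4 values was not tested.

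**Figure D2:**
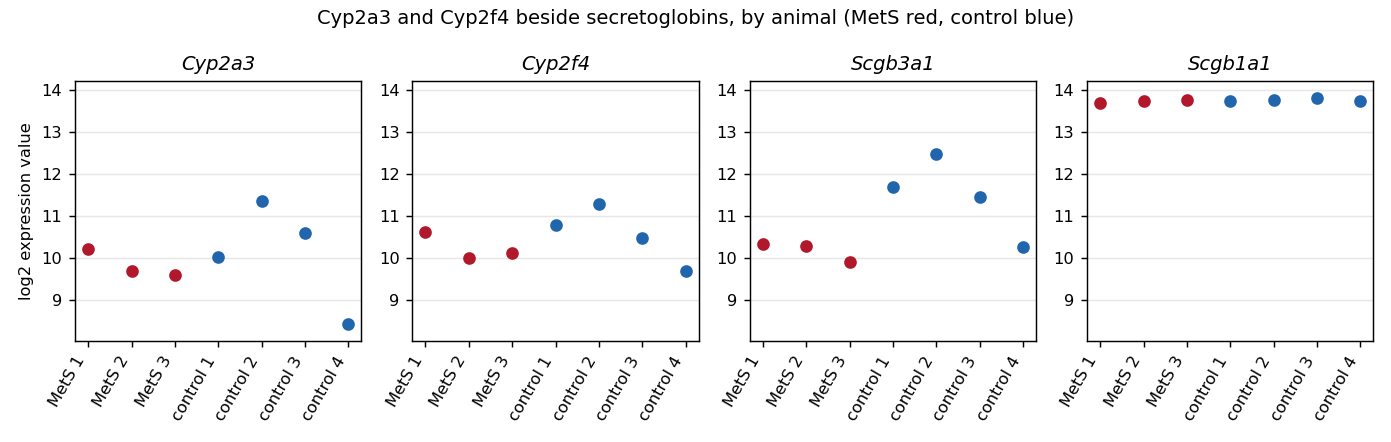
Log2 expression values of Cyp2a3, Cyp2f4, Scgb3a1 and Scgb1a1 in each of the 7 animals, MetS in red and control in blue, on 1 common scale. Control 2 is the highest and control 4 the lowest for Cyp2a3 and Cyp2f4, while Scgb1a1 stays between 13.69 and 13.81.

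Cyp2t1 was the brighter member with the smallest p and stood higher in every MetS animal than in any control. Its values were 8.37, 8.55 and 8.51 in MetS animals 1 to 3, against 8.24, 8.01, 7.76 and 8.17 in controls 1 to 4, and the means were 8.48 ± 0.10 (SD, n = 3) in MetS and 8.05 ± 0.21 (SD, n = 4) in controls. The difference of 0.43, a 1.35-fold difference, had a 95% interval of 0.14 to 0.72 and an unadjusted p of 0.00899 (limma, adjusted p = 0.324). Control 3 was the lowest animal, and without controls 2 and 3 the difference was 0.27. With the array SD as a covariate it was 0.23 and no longer reached the unadjusted threshold (limma, unadjusted p = 0.167). Groups without overlap and higher in MetS were found for 2 of the 17 brighter members, Cyp2t1 and Cyp2d4, against 7.37% of all brighter probes.

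Cyp2t1 is the last of 13 members that follow each other on rat chromosome 1, in the order Cyp2s1, Cyp2s1-ps1, Cyp2b1, Cyp2b2, Cyp2b21, Cyp2b12, Cyp2b15, Cyp2g1, Cyp2a3, Cyp2a1, Cyp2a2, Cyp2f4 and Cyp2t1. Here 6 of the 13 were brighter members. Differences in this stretch ran from -0.39 for Cyp2a2 to 0.43 for Cyp2t1. Every member from Cyp2b2 to Cyp2f4 in this order lay lower in MetS on average, most of them dimmer members. Over all dimmer probes 66.4% were lower. The members before Cyp2b2 lay higher, as did Cyp2t1 at 0.43 beside Cyp2f4 at -0.31. Cyp2s1-ps1, which RefSeq lists as a transcribed pseudogene, stood at 7.19, 6.63 and 6.99 in the MetS animals, against 6.78, 6.84, 7.17 and 6.94 in the controls. Cyp2g1, known from the olfactory mucosa, differed by -0.23 with an interval of -0.55 to 0.087.

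**Figure D3:**
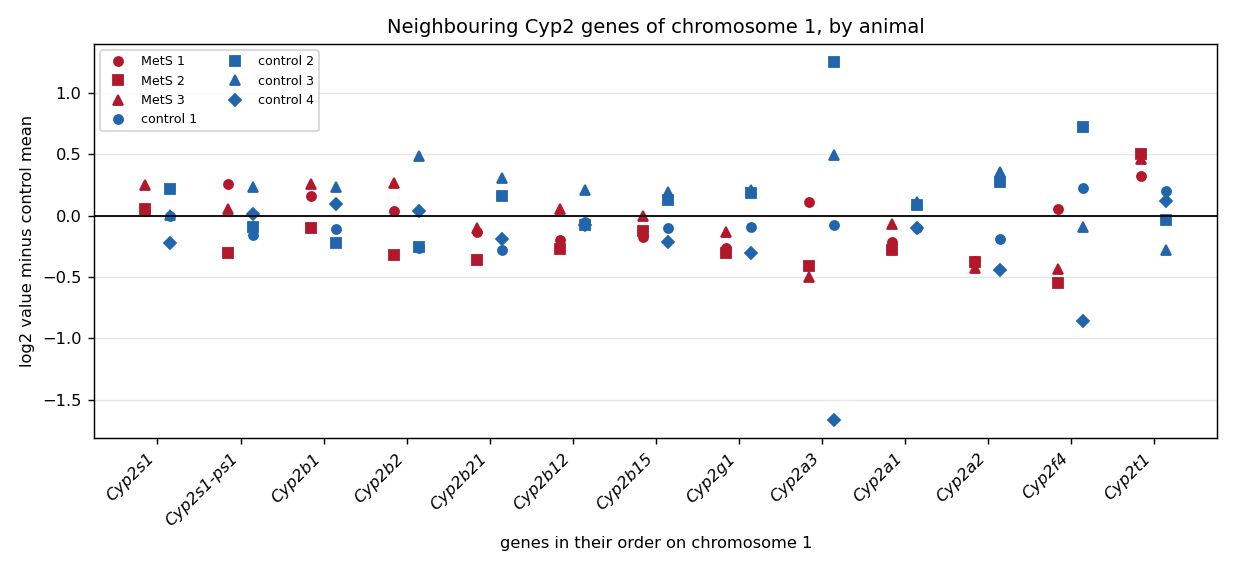
Log2 value of each animal minus the mean of the 4 controls for 13 Cyp2 genes in their order on chromosome 1, MetS animals in red on the left of each gene and controls in blue on the right. Cyp2a3 and Cyp2f4 have the widest control values, and only for Cyp2t1 do all MetS animals lie above all controls.

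Upstream sequence of 5 of these neighbours is shown because Cyp2b1 with Cyp2b2, and Cyp2a3 with Cyp2f4, had the same animals at the top or bottom, while Cyp2t1 did not overlap between groups. Each line holds the 250 bases before the gene start, 5′ to 3′ on the plus strand, from RefSeq in build GRCr8, at chr1:90645869-90646118 for Cyp2b1, chr1:90722031-90722280 for Cyp2b2, chr1:91299334-91299583 for Cyp2a3, chr1:91543518-91543767 for Cyp2f4 and chr1:91575260-91575509 for Cyp2t1. Capitals mark GCGTG, the core of the element that the aryl hydrocarbon receptor binds, searched on both strands, and TATAAA, the TATA box, searched on the gene's strand.
Cyp2b1: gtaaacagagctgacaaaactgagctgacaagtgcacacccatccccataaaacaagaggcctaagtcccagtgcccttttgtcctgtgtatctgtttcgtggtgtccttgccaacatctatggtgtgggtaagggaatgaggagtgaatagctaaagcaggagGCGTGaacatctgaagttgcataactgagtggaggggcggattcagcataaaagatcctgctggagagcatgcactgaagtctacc
Cyp2b2: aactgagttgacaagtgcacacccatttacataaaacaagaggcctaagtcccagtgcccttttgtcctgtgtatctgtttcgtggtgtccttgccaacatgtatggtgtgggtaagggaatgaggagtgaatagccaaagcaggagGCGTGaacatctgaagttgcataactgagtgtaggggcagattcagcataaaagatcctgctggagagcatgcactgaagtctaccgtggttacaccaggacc
Cyp2a3: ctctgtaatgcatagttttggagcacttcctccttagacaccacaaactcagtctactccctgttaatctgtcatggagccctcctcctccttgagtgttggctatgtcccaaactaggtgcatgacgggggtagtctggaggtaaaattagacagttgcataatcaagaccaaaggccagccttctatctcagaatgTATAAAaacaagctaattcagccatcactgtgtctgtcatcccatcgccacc
Cyp2f4: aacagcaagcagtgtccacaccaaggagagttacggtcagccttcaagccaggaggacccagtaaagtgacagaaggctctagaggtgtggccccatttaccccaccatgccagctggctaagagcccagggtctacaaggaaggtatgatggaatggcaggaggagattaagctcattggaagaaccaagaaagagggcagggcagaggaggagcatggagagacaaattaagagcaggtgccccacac
Cyp2t1: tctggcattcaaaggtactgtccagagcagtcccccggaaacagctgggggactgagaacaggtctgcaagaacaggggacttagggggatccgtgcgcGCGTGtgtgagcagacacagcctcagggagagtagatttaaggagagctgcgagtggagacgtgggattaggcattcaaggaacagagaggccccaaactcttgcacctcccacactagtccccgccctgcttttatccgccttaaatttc
GCGTG began at -86 before the start of Cyp2b1, at -103 before Cyp2b2 and at -151 before Cyp2t1, and TATAAA at -52 before Cyp2a3. Cyp2f4 had neither in this window. The windows of Cyp2b1 and Cyp2b2 were 84.3% identical when aligned end to end, against a median of 49.3% over the 903 pairs of the 43 members that had a promoter entry. Only Cyp2d1 with Cyp2d3, at 89.0%, were more alike among these pairs. Whether such close relatives share array signal was not tested, since only upstream sequence was compared. GCGTG was found for 11 of the 43 members, or 25.6%, against 27.2% of all 27457 promoters, and TATAAA for 8 of 43, or 18.6%, against 8.38%. The TATAAA search was added after the data were seen, and its 8 genes were Cyp1a2, Cyp2a1, Cyp2a3, Cyp2c11, Cyp2c12, Cyp2c13, Cyp2c22 and Cyp2e1.

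The arachidonic acid epoxygenases and steroid hydroxylases of subfamilies 2c and 2j fell into bright members with no difference past the test and dim Cyp2c members that all lay lower in MetS. Cyp2j4, an epoxygenase, stood at 7.25, 7.96 and 7.84 in the MetS animals, against 7.64, 7.67, 7.75 and 7.77 in the controls, where MetS animal 1 alone was apart. The difference was -0.025, and without MetS animal 1 it was 0.19 (limma, unadjusted p = 0.0478). Cyp2c23, an epoxygenase known from rat kidney, stood at 7.74, 7.17 and 7.98 in the MetS animals, against 7.48, 7.71, 7.97 and 7.71 in the controls, with MetS animal 2 the lowest. Among the dimmer ones, Cyp2j3 differed by 0.035 and Cyp2j10 by 0.0023, whereas the 5 dimmer Cyp2c genes differed by -0.32 to -1.50. With the array SD as a covariate 3 of these 5 lay lower, and after quantile normalizing again all 5 did. The share of all dimmer probes that lay lower was 66.4% without either step. Of these 14413 probes, 6240 lay lower with the array SD as a covariate and 5301 after quantile normalizing again.

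Cyp2c6v1 had the widest difference of all 50 genes. A liver form that phenobarbital induces, it stood at 5.31, 5.32 and 5.92 in MetS animals 1 to 3, against 6.58, 7.68, 7.62 and 6.18 in controls 1 to 4. Controls 2 and 3 were the highest, and no MetS animal reached the lowest control. The means were 5.52 ± 0.35 (SD, n = 3) in MetS and 7.01 ± 0.75 (SD, n = 4) in controls, a difference of -1.50 with an interval of -2.43 to -0.56 (limma, unadjusted p = 0.00653, adjusted p = 0.324). No fold is given because the MetS mean lay below 6.48, the 25th percentile of all probe means. The unadjusted p stayed under 0.05 in all 15 alternatives that tested the gene. Its size varied, and the difference was -0.86 without controls 2 and 3 and -0.40 with the array SD as a covariate. Of all dimmer probes 2.79% had a control range as wide as its 1.50.

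Cyp2c11, Cyp2c13 and Cyp2c12 are known for their sex-dependent expression in rat liver. Cyp2c11, the main male form, stood at 5.17, 5.31 and 5.46 in the MetS animals, against 5.61, 5.85, 5.66 and 5.40 in the controls, with control 4 inside the range of the MetS animals. Cyp2c13, also a male form, stood at 4.32, 4.42 and 4.52 in the MetS animals, against 4.64, 5.14, 5.81 and 4.85 in the controls, without overlap. Cyp2c12, the female form, stood at 4.09, 4.06 and 4.20 in the MetS animals, against 4.28, 4.94, 5.02 and 4.17 in the controls, and control 4 again lay among the MetS values. The differences were -0.32 for Cyp2c11, -0.69 for Cyp2c13 and -0.49 for Cyp2c12. Without controls 2 and 3 they were -0.19 (limma, unadjusted p = 0.154), -0.32 (unadjusted p = 0.021) and -0.11 (unadjusted p = 0.204), so that Cyp2c11 no longer reached the unadjusted threshold. They lay between -0.12 and 0.099 with the array SD as a covariate, where none reached an unadjusted p under 0.05 (limma, smallest unadjusted p = 0.45). Cyp2c22 differed by -0.41 with an interval of -0.83 to 0.0034, and by -0.16 without controls 2 and 3.

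Subfamily 2d, which hydroxylates amines and many drugs, held 1 brighter gene. Cyp2d4, known from rat brain as well, stood at 7.90, 7.75 and 8.10 in the MetS animals, against 7.70, 7.65, 7.50 and 7.66 in the controls. All MetS animals lay above all controls, with means of 7.91 ± 0.18 (SD, n = 3) in MetS and 7.63 ± 0.09 (SD, n = 4) in controls. The difference was 0.29 with an interval of 0.061 to 0.51 (limma, unadjusted p = 0.0194, adjusted p = 0.324). Without MetS animal 3, the highest, it was 0.20 and missed the unadjusted threshold (limma, unadjusted p = 0.0686), as it did at 0.24 without controls 2 and 3 (unadjusted p = 0.0948). With the array SD as a covariate, 0.25 missed it too (limma, unadjusted p = 0.121), and so did 0.30 with the replicate number as a block (unadjusted p = 0.0569). The other 4 Cyp2d genes, Cyp2d1, Cyp2d2, Cyp2d3 and Cyp2d5, were dim and ran from -0.14 for Cyp2d3 to 0.026 for Cyp2d1. Outside these subfamilies, Cyp2u1, a fatty acid hydroxylase, stood at 8.26, 8.59 and 8.34 in the MetS animals, against 8.23, 8.35, 8.47 and 8.34 in the controls, with overlapping groups. Cyp2r1, a vitamin D 25-hydroxylase, was dim and differed by -0.081.

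All 5 genes of subfamily 3a, the steroid and drug oxidases of liver and gut, lay lower in MetS on average, and 4 of them were dim. Among all dimmer probes 66.4% were lower. With the array SD as a covariate 3 of the 5 genes lay lower, and after quantile normalizing again 4 did. Of the 4 dim ones 3 did in each case, against 6240 and 5301 of all 14413 dimmer probes. The brighter one, Cyp3a9, stood at 8.00, 7.97 and 7.95 in the MetS animals, against 7.85, 7.97, 8.31 and 8.03 in the controls, with MetS animals inside the control range. Cyp3a2, a male form of rat liver, stood at 5.04, 4.94 and 5.14 in the MetS animals, against 5.23, 5.59, 5.76 and 5.16 in the controls. Cyp3a23-3a1 stood at 4.55, 4.75 and 4.82 in the MetS animals, against 5.01, 5.24, 4.89 and 4.93 in the controls. The groups did not overlap for either dim gene, and the differences were -0.40 (limma, unadjusted p = 0.0373, adjusted p = 0.345) and -0.31 (unadjusted p = 0.0236, adjusted p = 0.329). Without controls 2 and 3 that of Cyp3a2 was -0.15 (unadjusted p = 0.115), past the threshold no longer, and that of Cyp3a23-3a1 was -0.26 (unadjusted p = 0.0474). Both calls ended with the array SD as a covariate, at -0.0077 for Cyp3a2 and -0.18 for Cyp3a23-3a1 (limma, unadjusted p = 0.946 and unadjusted p = 0.252). They also ended after quantile normalizing again, at -0.14 and -0.065 (unadjusted p = 0.186 and unadjusted p = 0.528). Cyp3a62 at -0.19 did not overlap either, and Cyp3a18 at -0.41 did. Without controls 2 and 3 these were -0.075 and -0.17.

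The Cyp4 genes, which add oxygen to the far end of fatty acids and eicosanoids, had 5 brighter members, and none of these reached an unadjusted p under 0.05. Cyp4b1, a lung form that activates plant furans, stood at 12.46, 12.11 and 12.10 in the MetS animals, against 12.39, 12.29, 12.18 and 12.01 in the controls. Its group means were nearly equal, with a difference of 0.0028 and an interval of -0.29 to 0.30. Cyp4v3, a fatty acid hydroxylase, stood at 9.31, 9.27 and 9.30 in the MetS animals, against 9.39, 9.20, 8.89 and 9.26 in the controls, and control 3 was the lowest animal. In the 4f subfamily, which inactivates leukotriene B4, Cyp4f6 stood at 8.89, 8.66 and 8.61 in the MetS animals, against 8.52, 8.72, 8.49 and 8.75 in the controls. Cyp4f5 stood at 8.00, 8.11 and 8.38 in the MetS animals, against 8.01, 7.92, 8.19 and 8.04 in the controls. Cyp4f18, the form of mouse neutrophils, stood at 8.08, 8.80 and 8.18 in the MetS animals, against 8.69, 8.32, 8.05 and 8.54 in the controls, with MetS animal 2 the highest of all. The groups overlapped for each of these 5 genes.

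The 7 dim Cyp4 genes, Cyp4a1, Cyp4a3, Cyp4a8, Cyp4f1, Cyp4f4, Cyp4f40 and Cyp4x1, all lay lower in MetS on average, as 66.4% of dimmer probes did. Their differences ran from -0.45 for Cyp4a8 to -0.0047 for Cyp4f40. With the array SD as a covariate 2 of the 7 lay lower, against 6240 of all 14413 dimmer probes. After quantile normalizing again 2 of the 7 did, against 5301 of these probes. Cyp4a8, a fatty acid hydroxylase known from rat kidney, stood at 5.82, 5.93 and 6.06 in the MetS animals, against 6.11, 6.63, 6.75 and 6.06 in the controls. MetS animal 3 and control 4 had the same value at 2 decimals, and the difference had an unadjusted p of 0.0458 (limma, adjusted p = 0.359). It was -0.45, against -0.15 without controls 2 and 3 (limma, unadjusted p = 0.155), and turned to 0.051 with the array SD as a covariate. Cyp4a1, a target of the fatty acid receptor PPAR alpha in liver, differed by -0.16 with an interval of -0.43 to 0.12, and Cyp4a3 by -0.22 with an interval of -0.47 to 0.031. The 3 Cyp1 genes, which the aryl hydrocarbon receptor induces, were dim. Cyp1a1 stood at 5.98, 5.46 and 5.76 in the MetS animals, against 5.76, 5.39, 5.77 and 5.75 in the controls, Cyp1a2 differed by -0.029 with an interval of -0.20 to 0.14, and Cyp1b1 differed by -0.12 with an interval of -0.28 to 0.04.

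**Figure D4:**
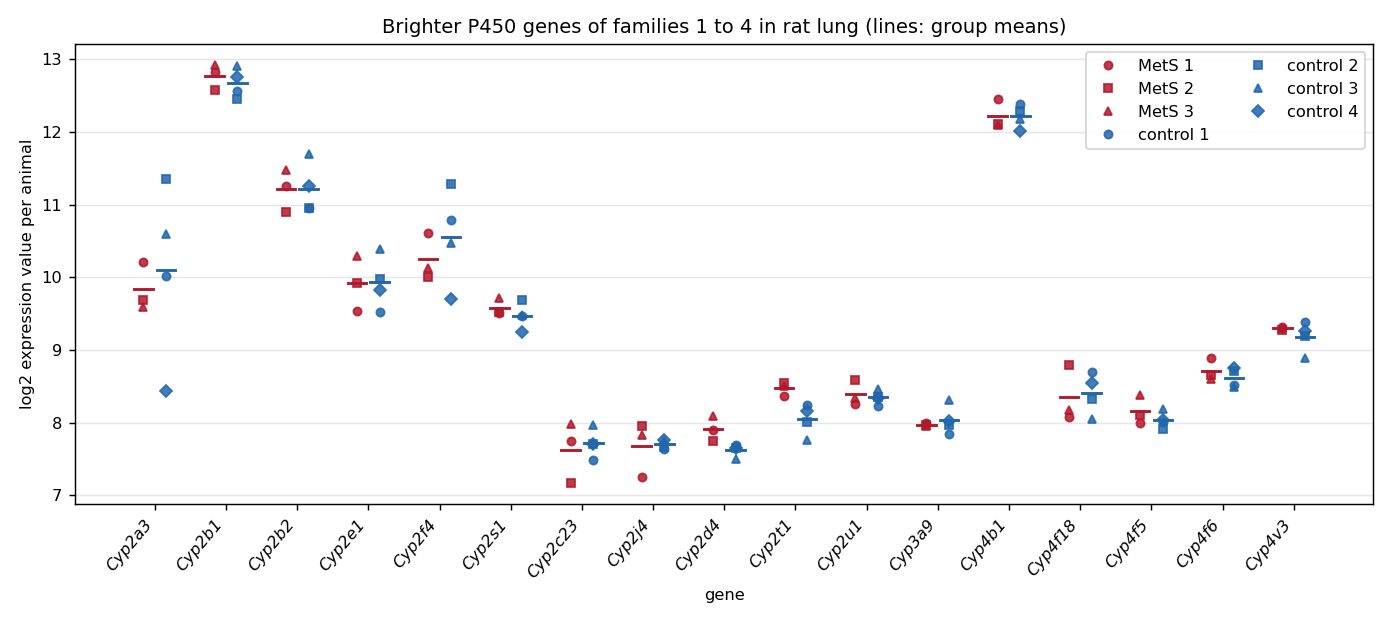
Log2 expression values of the 17 brighter P450 genes in each animal, MetS in red on the left and control in blue on the right of each gene, with a line at each group mean and a marker shape for each animal number. The groups are apart only for Cyp2d4 and Cyp2t1, and Cyp2a3 has the widest control range.

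As a set, the 17 brighter members split into 9 higher and 8 lower, around a median difference of 0.0028. Over all 14413 brighter probes 73.0% were higher, and the median difference was 0.069. Among the 33 dimmer members 28 lay lower and 5 higher in MetS. Their median was -0.14, against 66.4% lower and a median of -0.060 over all 14413 dimmer probes. Without overlap and lower in MetS were 5 of the 33, Cyp2c6v1, Cyp2c13, Cyp3a2, Cyp3a23-3a1 and Cyp3a62, against 12.2% of dimmer probes and 6.84% of all probes. The 20 measured P450 genes of other families, mostly enzymes of sterol, bile acid and vitamin metabolism, had 11 higher and 9 lower and a median of 0.014. Of these, Cyp11b1 alone was past an unadjusted p under 0.05, and it was lower, as 9.91% of all probes and 17.4% of dimmer probes were.

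The dimmer members were brightest in the 2 animals with the smallest array SD. Their median was 6.02, 5.93 and 6.06 in MetS animals 1 to 3, against 6.05, 6.31, 6.46 and 6.06 in controls 1 to 4. Only controls 2 and 3 stood above the MetS animals by over 0.2. The median of all 14413 dimmer probes was 6.35, 6.38 and 6.43 in MetS animals 1 to 3, against 6.48, 6.62, 6.66 and 6.42 in controls 1 to 4. Higher values of dim probes make the array SD smaller, so the relation of the 2 is partly built in. The median of 1104 olfactory receptor genes, whose products serve the nose, was 5.53, 5.63 and 5.90 in MetS animals 1 to 3, against 6.27, 6.83, 6.76 and 5.90 in controls 1 to 4. Fitted with the array SD, the dimmer members had a median difference of 0.013 and 14 of 33 were lower. Without controls 2 and 3 it was -0.073 and 25 of 33 were lower. After quantile normalizing the arrays again it was 0.016 and 15 of 33 were lower. Over all 14413 dimmer probes the median was 0.019 with the SD, -0.017 without controls 2 and 3 and 0.063 after quantile normalizing. Of these probes 6240, 7972 and 5301 were lower in the same order. The SD was lower in controls 1, 2 and 3 than in any MetS animal, but control 4, at 1.88, lay inside the MetS range. The SD and the group thus go together in part, and with 7 animals their parts cannot be clearly told apart.

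**Figure D5:**
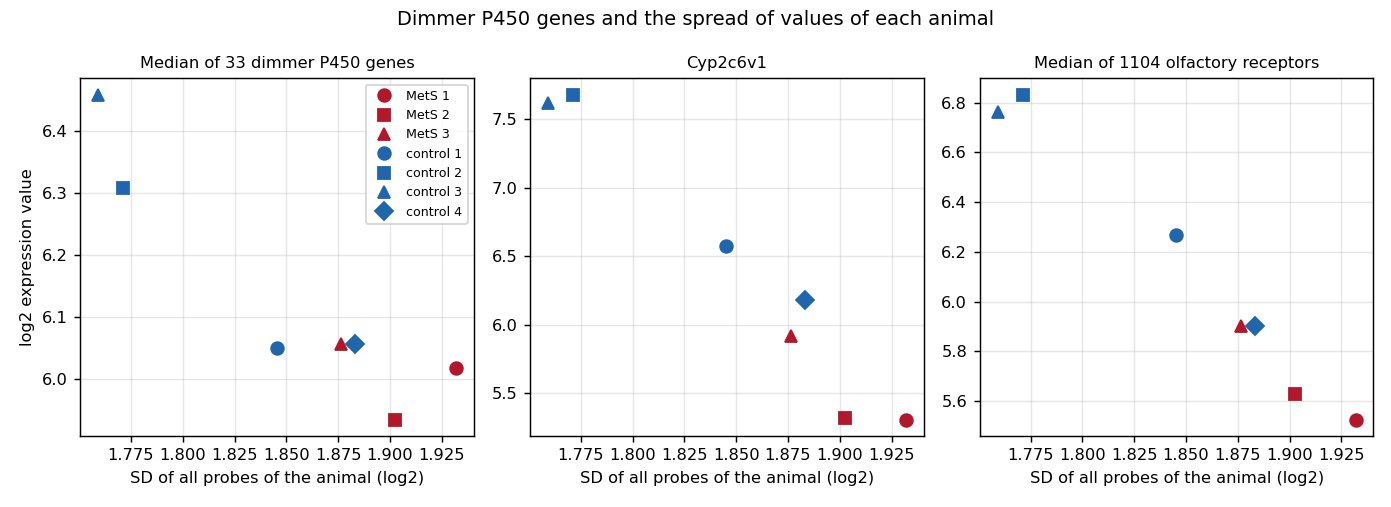
From left to right, the median log2 value of the 33 dimmer P450 genes, the value of Cyp2c6v1 and the median of 1104 olfactory receptor genes in each animal, against the SD of all probes of that animal, MetS in red and control in blue. Controls 2 and 3, with SDs of 1.77 and 1.76, lie highest in all 3 panels.

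Genes that supply and control P450 enzymes were taken as a companion list, of which 39 of 43 were measured. In MetS 32 lay higher and 7 lower, and the list's median difference was 0.070, against 0.069 over all brighter probes and 0.012 over all probes. Groups without overlap and higher in MetS were found for 3, Por, Ppox and Ephx1, against 4.88% of all probes. At an unadjusted p under 0.05, 3 of the 39 were higher, against 3.82% of all probes and 5.4% of brighter probes, and 0 were lower. Of the list 0 passed over all probes (limma, smallest adjusted p = 0.324). Por, the reductase that passes electrons to every microsomal P450, stood at 10.54, 10.36 and 10.29 in MetS animals 1 to 3, against 10.15, 10.14, 10.06 and 10.07 in controls 1 to 4. All MetS animals lay above all controls, with means of 10.40 ± 0.13 (SD, n = 3) in MetS and 10.10 ± 0.05 (SD, n = 4) in controls. The difference was 0.29, a 1.22-fold difference, with an interval of 0.12 to 0.47 (limma, unadjusted p = 0.0056, adjusted p = 0.324). It was 0.29 without controls 2 and 3 and 0.24 with the array SD as a covariate, where it missed the unadjusted threshold (limma, unadjusted p = 0.0574). The electron carrier Cyb5a stood at 12.21, 11.84 and 11.82 in the MetS animals, against 11.87, 11.71, 11.74 and 11.97 in the controls, with overlap.

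In heme synthesis, Alas2, the first enzyme in red cell precursors, stood at 10.74, 11.24 and 10.95 in the MetS animals, against 10.33, 10.19, 9.88 and 10.99 in the controls. Fech, the enzyme that inserts iron, stood at 8.63, 8.94 and 8.82 in the MetS animals, against 8.51, 7.97, 8.07 and 8.66 in the controls. Both were higher at an unadjusted p under 0.05 (limma, unadjusted p = 0.043 for Alas2 and unadjusted p = 0.0291 for Fech), and controls 2 and 3 were the lowest of the 7 animals. Without these 2 the differences were 0.31 and 0.21, against 0.63 and 0.49 with them, and neither reached the threshold (limma, unadjusted p = 0.259 and unadjusted p = 0.117). Alas1, the form that feeds liver P450 synthesis, stood at 10.97, 10.80 and 11.21 in the MetS animals, against 11.08, 10.78, 10.76 and 10.39 in the controls, and the groups overlapped. Ppox, a later enzyme of the pathway, did not overlap at a difference of 0.25 (limma, unadjusted p = 0.0541), which was 0.094 without controls 2 and 3. Of the receptors that switch on P450 genes, Ahr stood at 9.15, 9.65 and 9.46 in the MetS animals, against 9.67, 9.51, 9.19 and 9.68 in the controls, and 0 of the 12 measured reached an unadjusted p under 0.05. Ephx1, the epoxide hydrolase that acts after P450 oxidation, stood at 11.27, 11.23 and 11.25 in the MetS animals, against 11.18, 11.22, 11.17 and 11.18 in the controls. Its groups were apart by a small step, with a difference of 0.064 and an interval of -0.057 to 0.19.

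The 2 arrays of MetS animal 1 and of control 1 gave a measure of error for these animals alone. Over the 50 members and both such animals, the 100 differences between arrays had a median size of 0.071 and reached at most 0.325. Among the brighter members the range of the 4 controls had a median of 0.46 and ran from 0.13 for Cyp2j4 to 2.93 for Cyp2a3. Over all brighter probes its median was 0.27. For Cyp2t1 the second array lay 0.10 above the first in MetS animal 1, against a group difference of 0.43.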

How the data were processed

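RNA of lung was hybridised to 9 whole-transcript arrays. The deposited table holds log2 values, 1 column per array and 1 row per probe, and the submitters' processing notes name R 2.11.0, RMA and limma with no role or order. RMA as generally used summarises each transcript cluster by a median polish, and 20 of the 50 members had the same value on 2 or more arrays. No genome build is named in the sources used here. Of 28826 probes, 15209 had 1 gene symbol, 306 several and 13311 none. Symbols were updated through RefSeq (GRCr8), which matched 15178 probes and all 50 members, and the probe with the highest mean stood for a gene.

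Arrays of one animal were averaged. The test was lmFit and eBayes in limma 3.58.1 (R 4.3.3) on all probes, MetS minus control, with 7.28 degrees of freedom and Benjamini-Hochberg adjustment over all probes. Intervals are 95% and unadjusted for the number of genes. The fit was tested on simulated data with 28826 probes for this comparison, and 80.4% of changes of 1 and 94.8% of changes of 2 on the log2 scale were recovered. The simulated noise was independent for each probe, without the lower array SD that controls 2 and 3 shared. These shares thus do not tell how often such changes would be found in the real data. Tables and figures used Python 3.11.15, pandas 2.3.3, numpy 2.4.6, matplotlib 3.10.9 and Biopython 1.88. All brighter members were named, as were dimmer ones with an unadjusted p under 0.05 and the 3 with the widest difference in each direction. Members, lists, tests and alternatives were chosen with earlier results of these data known. Other dimmer members and companion genes named in the text were picked after their values were seen. Protein sequence was not used here. Promoter sequence was used for 43 members.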

Additional observations from a re-analysis of the deposited data

Results flagged for a closer look

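Among the 4 controls, 1 animal lay far from the other 3 for 3 of the 50 members, where about 1 in 20 groups does so by chance. For Cyp1a1 control 2 was low at 5.39, next to 5.76, 5.77 and 5.75, a gap of 0.937 of the range. For Cyp2b12 control 3 was high at 6.22, next to 5.96, 5.94 and 5.94, a gap of 0.911 of the range. For Cyp4a3 control 4 was low at 7.02, next to 7.36, 7.34 and 7.39, a gap of 0.879 of the range. All 3 are dim.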

How the results depend on the processing

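The number of members past the adjusted threshold was 0 in 15 of 16 alternatives. With the replicate block it was 2, Cyp2c6v1 and Cyp3a18, both lower, where 2017 of 28826 probes passed, and 1 was higher and 13 lower at an unadjusted p under 0.05, against 7.65% and 15.8% of all probes. Control 4 has no partner, so the block's estimates equal those without control 4. Animals of the same number correlated at 0.271, -0.118 and 0.339 in their deviations from the group means. MetS and control animals of different numbers correlated at -0.421 to 0.385. With so few such pairs, these values cannot decide whether the numbers pair the animals. The unadjusted counts, 2 higher and 6 lower, were 5 and 1 after quantile normalizing again (8.02% and 6.91% of all probes), 4 and 1 with the array SD as a covariate (1.68% and 1.87%), and 1 and 3 without controls 2 and 3 (1.43% and 3.81%). Testing only probes above the 25th percentile of probe means left 0 lower, since the 6 lower genes fall below it. Leaving out 1 animal gave 1 to 3 higher and 1 to 14 lower (1.82% to 6.99% and 4.7% to 14.4% of all probes). The median of the dimmer members, -0.14, turned to 0.016 after quantile normalizing and to 0.013 with the SD, and was -0.25 with the brightness limit at the 25th percentile. The median of the brighter members, 0.0028, was 0.14 with the SD, 0.11 without controls 2 and 3, -0.019 with that brightness limit and 0.0055 to 0.12 without 1 animal. Over all dimmer probes the median was -0.060, and it became 0.063 after quantile normalizing and 0.019 with the SD. Over all brighter probes it was 0.069, and it became -0.0086 with the SD and 0.020 without controls 2 and 3. The differences of single genes turned in 2 cases where one of the fits reached an unadjusted p under 0.05, Cyp4a8 to 0.051 with the SD and Cyp2j4, which ran from -0.16 to 0.19 when 1 animal was left out, to 0.19 without MetS animal 1. The causes were not tested. Each member has 1 probe, so averaging probes changed nothing. How far the 33 dimmer members stood above background was not measured.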
